A study of Mus musculus with 10 samples.

Results

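Keratins are the intermediate filament proteins of epithelial cells, and 9 keratin genes used to tell basal from luminal mammary cells were followed here in cells sorted from mouse mammary glands. They are Krt5, Krt14, Krt15 and Krt17, which are known from basal cells, and Krt7, Krt8, Krt18, Krt19 and Krt23, which were taken as keratins of luminal cells. Members were the probe sets whose gene symbol is exactly one of these names. All 9 were found, each with 1 probe set, among 28815 probe sets on the array, and all 9 were among the 15815 genes tested. A keratin filament is built from pairs that join 1 acidic type I chain to 1 basic type II chain, so each chain needs a partner of the other type. Krt5 with Krt14 is the pair of the basal layer of stratified epithelia and of mammary basal and myoepithelial cells. Krt8 with Krt18 is the pair of simple epithelia, and Krt7 (type II) and Krt19 (type I) add to it in glandular and ductal cells. Krt15 is a type I chain known from basal keratinocytes and hair follicle stem cells, and Krt17 a type I chain of hair follicles, glands and wounded or activated epithelium. Krt23 is a type I chain with a less settled role.

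The cells came from virgin female littermates aged 8 to 12 weeks that were housed in 1 cage, either control or Pygo2 SSKO. Pygo2 encodes a PHD-finger co-factor of beta-catenin. SSKO is not spelled out in the labels, the mutant cells are Pygo2-null by the title of the series, and the sources used here do not name a promoter that drives the deletion. Glands were digested with collagenase, and cells bearing CD31, CD45 or TER119 (endothelial, blood and erythroid markers, together called lineage markers) were gated out. The fraction called basal was negative for these, high in CD29 and positive for CD24, and holds mammary stem cells together with basal cells. The fraction called luminal was negative for them, low in CD29, positive for CD24 and negative for CD61. There were 3 arrays of SSKO basal cells, 3 of control luminal cells and 4 of control basal cells. SSKO luminal cells were not analysed here. Samples are labelled as biological replicates, with no number of animals behind each, so p-values measure only the spread between these samples.

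Values are log2(intensity + 16) of Affymetrix arrays, and every difference or fold is on that scale, which understates changes of dim genes. The deposited intensities had array medians between 205 and 228, and the number of arrays limits the precision. Pygo2 had 6.99, 5.94 and 5.86 in the SSKO basal arrays and 8.11 to 9.09 in the control basal arrays, a difference of -2.34 (SE 0.32, adjusted p = 0.0441 with limma). The labelled cell types matched their other markers: all 17 measured basal markers that are not keratins were lower in luminal cells, and all 15 measured luminal markers were higher. Among the genes of the sort, Cd24a was 1.41 higher and Itgb1 (CD29) 0.78 lower in luminal cells, both called. Itgb3 (CD61) differed by -2.47, also called. Ptprc (CD45) differed by -0.01, but it read 6.66 to 7.02 over all arrays, in the dim range, so this says little about blood cells. Pecam1 (CD31) read 11.31, 8.32 and 10.41 in the SSKO basal arrays, 8.35 to 8.79 in the luminal arrays and 8.31 to 10.34 in the control basal arrays. Markers of other cell types were present in the basal arrays. The 12 endothelial genes, of which Eng and Cdh5 are the brightest, had array means of 8.18 to 10.89 in SSKO basal, 7.85 to 8.31 in luminal and 8.34 to 9.95 in control basal cells. The 11 measured fibroblast genes averaged 9.34 to 9.95 in SSKO basal, 6.95 to 7.47 in luminal and 9.55 to 10.87 in control basal cells. For the 12 measured immune genes, of which Cd68 and Cd74 are the brightest, the array means were 7.84 to 8.40 in SSKO basal cells. They were 7.21 to 7.48 in luminal and 7.61 to 8.08 in control basal cells.

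Luminal array 3 and control basal array 4 stood apart from the other arrays of their groups in several keratins. Krt6b, a type II keratin of activated and suprabasal epithelium, read 14.08 in luminal array 3, against 8.52 and 8.38 in the other luminal arrays. It read 14.93 in control basal array 4, against 7.77, 8.20 and 8.32 in the other control basal arrays, and 7.84 to 8.45 in the SSKO basal arrays. Krt1, a type II chain of differentiated epidermis, read 12.36 in luminal array 3 and 12.78 in control basal array 4, and between 8.93 and 9.59 in the other 8 arrays. The mean of 9 measured epidermal keratinocyte genes, which include Krt1 and Krt10, was 7.55 to 7.94 in SSKO basal, 7.67 to 8.60 in luminal and 7.54 to 9.06 in control basal arrays. Of that list Krtdap, a gene of differentiating keratinocytes, read 7.10 in luminal array 3 and 11.34 in control basal array 4, while Lor (loricrin) read 6.52 and 6.59, in the dim range. Calml3 read 9.55 in luminal array 3, against 6.48 and 6.87 in the other luminal arrays. In control basal array 4 it read 9.45, against 7.21 to 8.81 in the other control basal arrays. Krt77 read 8.03 in luminal array 3, below the 8.34 and 9.85 of the other luminal arrays. Of the 43 keratins tested, 9 were over 1 log2 unit higher in luminal array 3 than in the mean of the other luminal arrays, 9 were so in control basal array 4, and 6 in both. The keratin differences that these arrays move most are given with and without them.

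The 9 genes lie in the keratin clusters of mouse chromosomes 11 and 15. Krt15 and Krt19 are direct neighbours on chromosome 11, and Krt14, Krt16, Krt17 and Krt42 follow each other there. Krt8 and Krt18, the partners of the simple epithelial pair, are direct neighbours on chromosome 15 although they are chains of opposite type. Krt6b, Krt6a and Krt5 are consecutive on the same chromosome.

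Upstream sequence of 6 of the 9 genes (Krt5, Krt14, Krt7, Krt8, Krt18 and Krt23) was available from RefSeq (GRCm38.p6), and 4 are shown because they set a basal keratin beside luminal ones. Each run is the 100 bases before the annotated gene start, 5′ to 3′ on the gene's strand. Capitals mark ATAAA within the 40 bases before the start on the gene's strand, and GGGCGG or its complement CCGCCC, the GC box, on either strand. Krt5 is shown from chr15:101712906-101713005 on the minus strand, Krt7 from chr15:101412303-101412402 on the plus strand, Krt8 from chr15:102004343-102004442 on the minus strand and Krt18 from chr15:102028116-102028215 on the plus strand.
Krt5: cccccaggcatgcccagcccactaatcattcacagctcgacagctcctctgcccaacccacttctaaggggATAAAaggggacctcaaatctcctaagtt
Krt7: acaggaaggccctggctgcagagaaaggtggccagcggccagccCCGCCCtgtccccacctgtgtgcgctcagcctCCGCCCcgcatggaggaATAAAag
Krt8: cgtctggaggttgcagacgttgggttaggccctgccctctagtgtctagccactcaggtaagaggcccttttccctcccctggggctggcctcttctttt
Krt18: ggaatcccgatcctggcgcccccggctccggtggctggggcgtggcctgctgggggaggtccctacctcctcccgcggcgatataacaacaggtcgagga

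ATAAA, letters that can be part of a TATA box, was found in Krt5, Krt7 and Krt23, and 5.504% of 32851 mouse promoters hold it in that window. In Krt7 it lies right beside the start, much nearer than in Krt5 or Krt23. Other TATA-like letters, such as TATAA in the Krt18 run, were not searched. GGGCGG within 250 bases before the start on either strand was found in Krt7 alone of the 6 genes, against 32.742% of all promoters. GCCNNNGGC, a form of the AP-2 recognition sequence, was found in Krt7 and Krt18, against 13.726% of all promoters. TGANTCA (the AP-1 sequence, in 6.749% of promoters) and CTTTGA (a TCF/LEF sequence, in 13.832%) were in none of the 6 windows. For Krt14 the start used in that table is not the edge of the annotated gene, so its window may not lie at the promoter. A match describes letters and not a bound site.

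Krt5, Krt14 and Krt17 were about 14-fold lower in luminal cells than in control basal cells, Krt15 4.63-fold lower, Krt7, Krt19 and Krt18 17.6-, 11.9- and 5.71-fold higher, and Krt8 1.92-fold higher. Krt23 was 6.19-fold lower in luminal cells, against its place among the luminal keratins. All 9 genes passed the test (limma, Benjamini-Hochberg adjustment over all genes, adjusted p under 0.05), 4 of them higher in luminal cells, where 24.6% of all genes were called higher, and 5 lower, where 19.7% were called lower. No luminal array overlapped a control basal array in any of the 9, which held for 46.3% of all genes. In RNA from sorted populations, a smaller share of cells that express a gene and less of its RNA in each cell cannot be told apart.

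**Figure D1:**
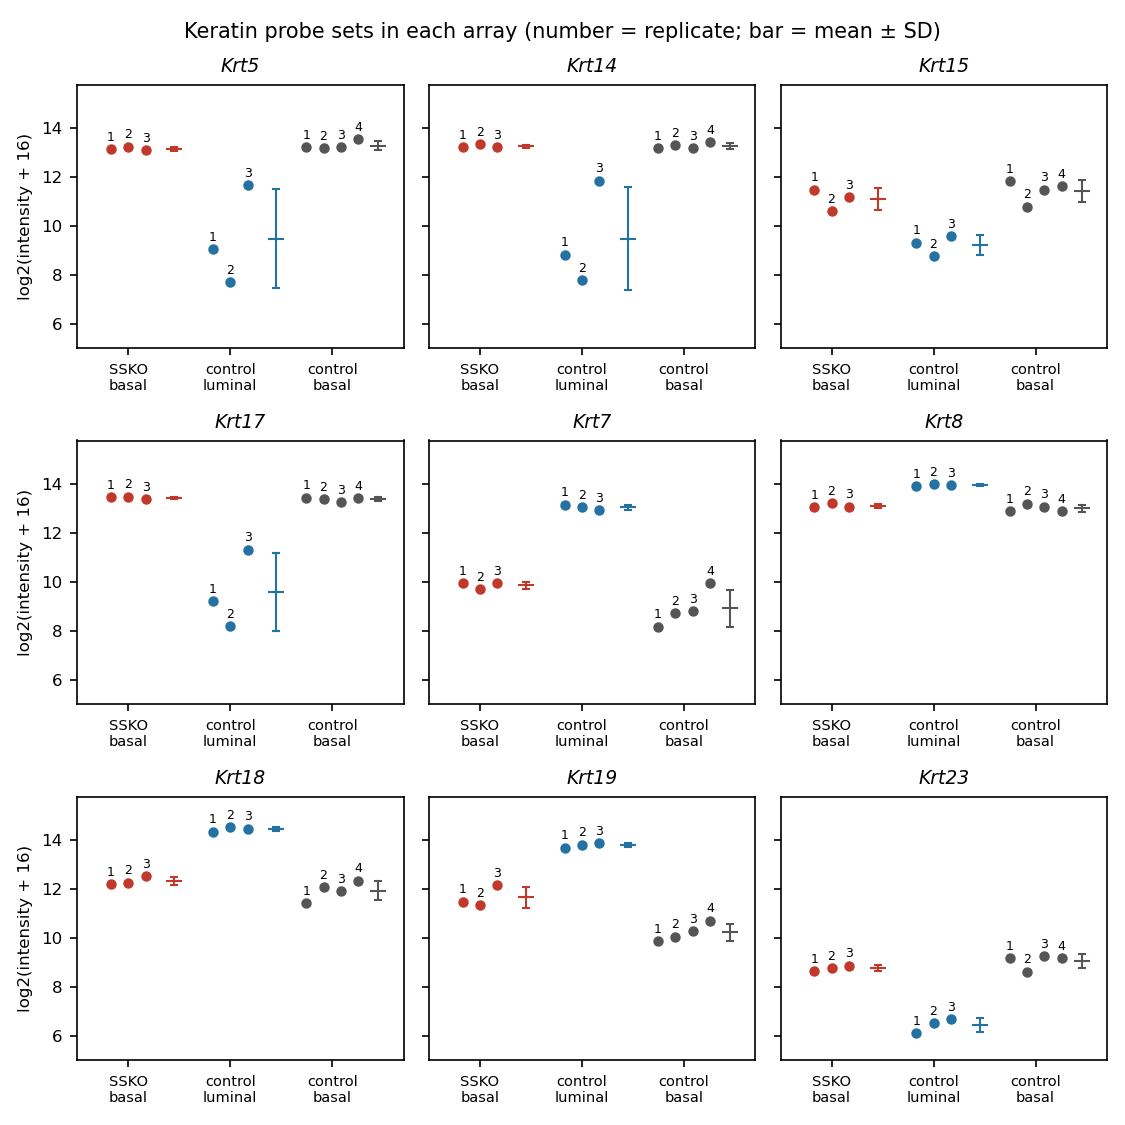
Level of each of the 9 keratins as log2(intensity + 16) on every array, with SSKO basal, control luminal and control basal cells from left to right; points are arrays and bars give the mean ± SD of a group. Krt5, Krt14 and Krt17 spread widely among the 3 luminal arrays, Krt23 is lower in luminal cells, and Krt19 is the gene whose SSKO basal arrays (11.35 to 12.15) all lie above the control basal arrays (9.87 to 10.71).

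Among the basal keratins, Krt5, the type II chain of the pair, had 9.06, 7.70 and 11.68 in the luminal arrays, against 13.22, 13.20, 13.22 and 13.55 in the control basal arrays. The luminal arrays were all lower, but they spread over almost 4 log2 units while the control basal arrays lay close together. The group means were 9.48 ± 2.03 in luminal cells (SD, n = 3) and 13.30 ± 0.17 in control basal cells (SD, n = 4), a difference of -3.82 (SE 0.67, limma adjusted p = 0.000726). Krt14, its type I partner, had 8.82, 7.78 and 11.86 in the luminal arrays, against 13.18, 13.30, 13.20 and 13.43 in the control basal arrays. It showed the same order of luminal arrays as Krt5, with array 3 highest and array 2 lowest, and a difference of -3.79 (SE 0.70, limma adjusted p = 0.00102). Krt17, a type I chain encoded close to Krt14, had 9.21, 8.20 and 11.32 in the luminal arrays, against 13.46, 13.40, 13.28 and 13.45 in the control basal arrays. Its difference was -3.82 (SE 0.53, limma adjusted p = 0.000134), again with luminal array 3 far above the other luminal arrays. Krt15 had 9.32, 8.78 and 9.59 in the luminal arrays, against 11.84, 10.79, 11.49 and 11.63 in the control basal arrays. This gene differed by -2.21 (SE 0.29, limma adjusted p = 8.04e-05), and its luminal arrays lay within 1 log2 unit of each other.

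Without luminal array 3 the differences grew to -4.92 for Krt5 (SE 0.30), -4.98 for Krt14 (SE 0.24) and -4.69 for Krt17 (SE 0.23), while Krt15 gave -2.39 (SE 0.32). That array exceeded the mean of the other luminal arrays by 3.30 in Krt5, 3.56 in Krt14 and 2.61 in Krt17 but by 0.54 in Krt15. In the same array Trp63, the transcription factor of basal cells, was 2.75 higher. The 6 contractile genes of myoepithelial cells were 0.66 to 1.44 higher there, a smaller margin than that of Krt5, Krt14 and Krt17. The margins are not on an equal footing, since the scale understates changes of dim genes. Myh11, Mylk and Actg2 averaged 6.69, 6.04 and 5.99 in the other luminal arrays, and the other contractile genes 7.14 to 9.85. Krt5, Krt14 and Krt17 averaged 8.30 to 8.71. What part basal cells or other cells in this sample have in these values was not tested.

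Among the luminal keratins, Krt8, the type II chain of the simple pair, had 13.94, 14.00 and 13.96 in the luminal arrays, against 12.90, 13.21, 13.09 and 12.91 in the control basal arrays. It had the smallest difference of the 9 genes, 0.94 (SE 0.11, limma adjusted p = 5.2e-05), with means of 13.97 ± 0.03 in luminal (SD, n = 3) and 13.03 ± 0.15 in control basal cells (SD, n = 4). Krt18, its type I partner, had 14.36, 14.53 and 14.48 in the luminal arrays, against 11.42, 12.10, 11.91 and 12.35 in the control basal arrays. Krt18 differed by 2.51 (SE 0.20, limma adjusted p = 1.5e-06), with a wider spread among control basal arrays than among luminal ones. The confidence intervals of these differences, 0.69 to 1.19 for Krt8 and 2.08 to 2.94 for Krt18, do not overlap.

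Krt7 had 13.17, 13.07 and 12.94 in the luminal arrays, against 8.17, 8.73, 8.82 and 9.96 in the control basal arrays. It had the largest rise of the 9 genes in luminal cells, 4.14 (SE 0.32, limma adjusted p = 1.47e-06), and ranked 59 of 15815 genes from the highest difference. Krt19, a type I chain that almost lacks a tail domain, had 13.70, 13.83 and 13.87 in the luminal arrays, against 9.87, 10.06, 10.28 and 10.71 in the control basal arrays. Its difference was 3.57 (SE 0.22, limma adjusted p = 2.95e-07), and the luminal arrays lay within 0.2 of each other. Luminal array 3, which stood apart in the basal keratins, differed from the mean of the other luminal arrays by -0.17 in Krt7, -0.01 in Krt8, 0.03 in Krt18 and 0.11 in Krt19.

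Krt23 had 6.10, 6.50 and 6.67 in the luminal arrays, against 9.18, 8.62, 9.25 and 9.16 in the control basal arrays. In these cells it therefore ran with the basal keratins and against its grouping as a luminal keratin. Its difference was -2.63 (SE 0.18, limma adjusted p = 6.52e-07). All 3 luminal values lay under 6.74, the mean level required of a probe set to be tested, so how far Krt23 lay below its level in control basal cells is uncertain.

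Between SSKO basal and control basal cells, none of the 9 keratins passed the test, where 0.0379% of all genes did (6 genes by limma). At an unadjusted p under 0.05 there were 2 of the 9, Krt19 and Krt7, and 479 of all genes. Krt19 was the only one of the 9 whose SSKO and control basal arrays did not overlap, which held for 4.46% of all genes. The median difference of the 9 was 0.06, beside 0.01 over all genes.

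Krt19 had 11.49, 11.35 and 12.15 in the SSKO basal arrays, against 9.87, 10.06, 10.28 and 10.71 in the control basal arrays. Every SSKO array lay above every control basal array, and below every luminal array. The means were 11.67 ± 0.43 in SSKO basal (SD, n = 3) and 10.23 ± 0.36 in control basal cells (SD, n = 4), a difference of 1.44 (SE 0.22, 2.71-fold, 95% interval 0.95 to 1.93). The fit shares 1 spread over all groups, and the luminal arrays varied less (SD 0.09, n = 3), which narrows this SE and interval. By p-value Krt19 ranked 8 of 15815 genes, with an unadjusted p of 4.91e-05 and an adjusted p of 0.0934 by limma, so it missed the threshold. The call changed when single arrays were left out: the difference was 1.59 (limma adjusted p = 0.0429) without SSKO basal array 2, and 1.60 (limma adjusted p = 0.0376) without control basal array 4. Without SSKO basal array 3 it was 1.19, with a limma adjusted p of 0.437. The endothelial genes averaged 8.18 in SSKO basal array 2, the lowest of all basal arrays, and Krt19 read 11.35 there, the lowest of the SSKO basal arrays and above all control basal arrays. Over the SSKO and control basal groups all 12 endothelial genes had differences above 0, with a median of 0.67 and 0 called. SSKO basal arrays 1 and 3 and control basal array 1 were the basal arrays brightest for endothelial genes. Leaving them out kept SSKO basal array 2 alone in its group, and the Krt19 difference was then 1.01. With the endothelial mean as a covariate it was 1.44 (limma adjusted p = 0.244). What part endothelial RNA has in the Krt19 values was not tested.

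Krt7 had 9.94, 9.70 and 9.94 in the SSKO basal arrays, against 8.17, 8.73, 8.82 and 9.96 in the control basal arrays. The groups overlapped through control basal array 4, which was as high as the SSKO arrays and lay 1.39 above the mean of the other control basal arrays. The difference was 0.94 (SE 0.32, 95% interval 0.23 to 1.64, unadjusted p = 0.0137, limma adjusted p = 0.9998). The spread shared by all groups takes in luminal arrays with an SD of 0.11 (n = 3), beside 0.75 in control basal arrays (n = 4), which narrows this interval. Without control basal array 4 the difference was 1.29, with a limma adjusted p of 0.0645. It was 0.69 without control basal array 1 (limma adjusted p = 0.9999). Without the 3 endothelial-bright basal arrays, which leaves SSKO basal array 2 alone in its group, it was 0.52. Krt18 had 12.20, 12.27 and 12.53 in the SSKO basal arrays, against 11.42, 12.10, 11.91 and 12.35 in the control basal arrays. The groups overlapped, and the difference was 0.39 (SE 0.20, 95% interval -0.04 to 0.82). It was 0.21 without control basal array 1 and 0.15 without the 3 endothelial-bright basal arrays. Krt8 had 13.07, 13.22 and 13.09 in the SSKO basal arrays and 12.90 to 13.21 in the control basal arrays, a difference of 0.10 (95% interval -0.16 to 0.35). The Krt8 groups overlapped as well.

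The 4 basal keratins and Krt23 overlapped between SSKO and control basal cells. Krt5 had 13.15, 13.25 and 13.10 in the SSKO basal arrays and 13.20 to 13.55 in the control basal arrays. Krt14 had 13.23, 13.34 and 13.24 in the SSKO basal arrays and 13.18 to 13.43 in the control basal arrays. Krt17 had 13.47, 13.49 and 13.41 in the SSKO basal arrays and 13.28 to 13.46 in the control basal arrays. The differences were -0.13 for Krt5 (95% interval -1.61 to 1.35), -0.01 for Krt14 (-1.55 to 1.54) and 0.06 for Krt17 (-1.11 to 1.22). These intervals are wide because the fit shares 1 spread over all groups and the luminal arrays vary. In a fit to the 7 basal arrays alone the differences were unchanged and their SE was 0.13, 0.12 and 0.11. Krt15 had 11.49, 10.60 and 11.19 in the SSKO basal arrays and 10.79 to 11.84 in the control basal arrays, a difference of -0.35 (95% interval -0.98 to 0.28). It was -0.10 without SSKO basal array 2 and -0.56 without control basal array 2. Krt23 had 8.64, 8.76 and 8.87 in the SSKO basal arrays and 8.62 to 9.25 in the control basal arrays, a difference of -0.30 (95% interval -0.70 to 0.11). Control basal array 2 was the lowest of its group in both genes and as low as SSKO arrays.

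**Figure D2:**
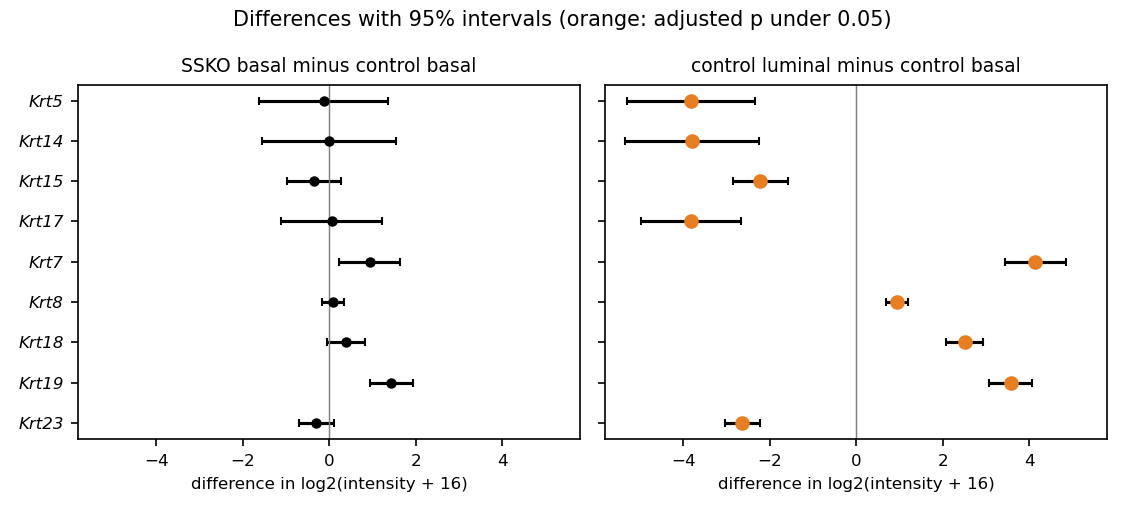
Log2 difference of each keratin with its 95% interval, in SSKO basal minus control basal cells in one panel and in luminal minus control basal cells in the other; orange marks an adjusted p under 0.05. In the SSKO comparison the Krt19 interval (0.95 to 1.93) and the Krt7 interval (0.23 to 1.64) lie above 0, although no adjusted p passed. Both are narrowed by the luminal arrays in the shared spread. In the luminal comparison all 9 intervals exclude 0.

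Averaged per array and set to the control basal mean, Krt5, Krt14, Krt15 and Krt17 gave -0.02, -0.18 and -0.12 in SSKO basal cells, -3.75, -4.74 and -1.74 in luminal cells, and -0.18 to 0.16 in control basal cells. The SSKO and control basal arrays of this set overlapped. The average of Krt7, Krt8, Krt18, Krt19 and Krt23 was 0.43, 0.43 and 0.68 in SSKO basal cells, 1.62, 1.75 and 1.75 in luminal cells, and -0.33, -0.09, 0.03 and 0.39 in control basal cells. For this set every SSKO array lay above every control basal array, with control basal array 4 just under them. The differences within the set were uneven, at 1.44 for Krt19, 0.94 for Krt7, 0.39 for Krt18, 0.10 for Krt8 and -0.30 for Krt23. Of these genes only Krt19 did not overlap on its own. The mean of the 15 luminal markers that are not keratins was 9.63, 9.55 and 9.81 in the SSKO basal arrays, 12.14 to 12.29 in the luminal arrays and 9.02, 9.21, 9.19 and 9.58 in the control basal arrays. SSKO basal array 2 lay just under control basal array 4 in that mean, so the groups overlapped. Of the 15 markers 13 had SSKO differences above 0, where the median difference over all genes was 0.01. Of the 15, 1 was called, where 0.0379% of all genes were. It was Cited1 (a transcriptional co-activator), with a difference of 1.56 (limma adjusted p = 0.0103). Esr1 (-0.34) and Muc1 (-0.54) lay below 0. The part of such genes in the values of Krt7 and Krt19 was not tested.

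SSKO basal cells differed from luminal cells in all 9 keratins, 5 of them higher in SSKO basal cells, where 19% of all genes were called higher, and 4 lower, where 23.3% were called lower. None of the 9 overlapped between the 2 groups, which held for 54.4% of all genes. Krt5, Krt14, Krt17, Krt23 and Krt15 were higher by 3.69, 3.78, 3.88, 2.33 and 1.87 in SSKO basal cells. Without luminal array 3 the differences were 4.79 for Krt5, 4.97 for Krt14 and 4.75 for Krt17. Krt7, Krt19, Krt18 and Krt8 were lower, by differences of -3.20, -2.14, -2.13 and -0.84. The largest limma adjusted p of the 9 was 0.00177, for Krt14. This comparison shares its luminal arrays with the one against control basal cells. Krt19 differed from luminal cells by -2.14 (SE 0.24, 4.40-fold lower) in SSKO basal cells, beside its luminal minus control basal difference of 3.57.

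From lowest to highest, the mean of Krt7 was ordered control basal, SSKO basal, luminal, and so were Krt8, Krt18 and Krt19. For Krt7, Krt8 and Krt18 the SSKO and control basal groups overlapped. Krt5, Krt14 and Krt15 ran luminal, SSKO basal, control basal and Krt23 likewise, and Krt17 ran luminal, control basal, SSKO basal. In those 5 genes the basal groups overlapped.

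**Figure D3:**
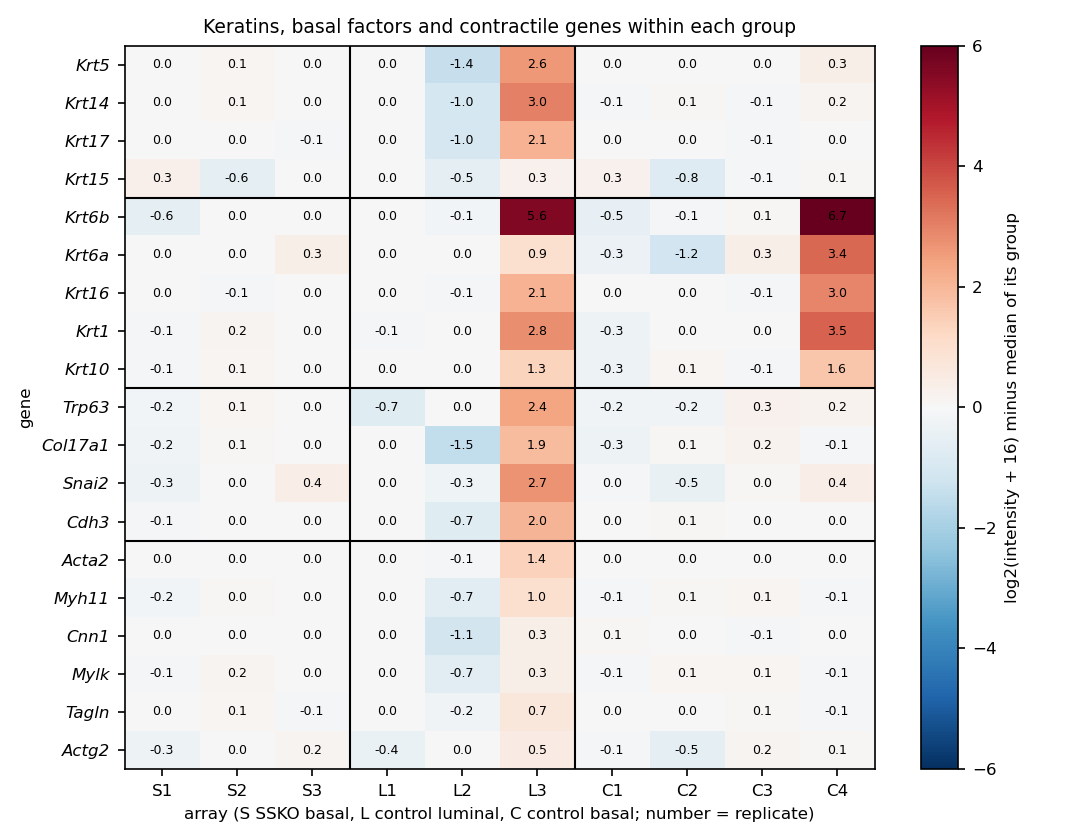
Deviation of log2(intensity + 16) on each array from the median of its own group; rows are the basal keratins, Krt6b, Krt6a, Krt16, Krt1 and Krt10, then basal factors and contractile genes, and columns are arrays (S for SSKO basal, L for control luminal, C for control basal). Krt5, Krt14 and Krt17 stand out in luminal array 3 together with Krt6b and Krt1, while in control basal array 4 Krt6b and Krt1 stand out with little change in Krt5, Krt14 and Krt17.

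After subtraction of group means, Krt5, Krt14 and Krt17 varied together from array to array. The Pearson correlation over 10 arrays was 0.994 for Krt5 with Krt14 and for Krt14 with Krt17, and without luminal array 3 it was 0.988 and 0.963. In the 7 basal arrays alone it was 0.861 for Krt5 with Krt14 and 0.418 for Krt14 with Krt17. Krt17 was the most alike of all 15814 other genes to Krt5, and Krt14 ranked 2. For Krt14, its partner Krt5 ranked 4. Krt8 and Krt18 did not track each other in the same way, with a correlation of 0.221 over 10 arrays and 0.203 in the 7 basal arrays. Krt18 correlated more with Krt7 (0.817) and with Krt19 (0.785), which was 0.784 in the 7 basal arrays. Krt7, Krt18 and Krt19 deviated by -0.75, -0.53 and -0.36 in control basal array 1 and by 1.04, 0.41 and 0.48 in control basal array 4. Both correlations therefore lean on these arrays. All correlations here are descriptions over few arrays of the same libraries and carry no test.

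Outside the 9, the genes that varied most like the basal keratins were Cdh3, encoding P-cadherin of basal cells, at 0.998 with Krt14, 0.994 with Krt17 and 0.990 with Krt5, then Irx4 at 0.995 with Krt14 and 0.988 with Krt17, and Epha4 at 0.988 with Krt5. Luminal array 3 was 2.40 above the other luminal arrays in Cdh3. The genes most like Krt19 were Pamr1 (0.998) and Tgfb1 (0.975), and those most like Krt7 were Ltb4r1 (0.962) and Fndc1 (0.939). Krt18 was most like Atp2c2 (0.954) and Plagl2 (0.936), and Krt8 most like 2310022B05Rik (0.977) and Helt (0.975). For Krt15 they were Tmem106a (0.978) and Golga5 (0.962), and for Krt23 Csnk1g1 (0.969) and Cep170 (0.958). These were picked as the highest among 15814 correlations, and a value of 0.954 or more was reached for all 9 keratins.

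The array carried 43 other keratin genes, of which 34 were bright enough to test, 16 of type I and 18 of type II. Of these, 3 were called higher and 1 lower in luminal cells, where 24.6% of all genes were called higher and 19.7% lower, and their median difference was 0.03 beside 0.07 over all genes. Krt4, a type II chain of internal stratified epithelia, had 11.29, 10.39 and 11.54 in the luminal arrays, against 5.96, 6.06, 6.42 and 7.25 in the control basal arrays. This difference of 4.65 (SE 0.42, limma adjusted p = 4.93e-06) exceeded that of any of the 9, although its control basal mean of 6.42 lay in the dim range. Krt42, a type I gene beside Krt17, had 7.81, 7.86 and 7.24 in the luminal arrays, against 10.11, 10.31, 9.41 and 10.44 in the control basal arrays, a difference of -2.43 (SE 0.24, limma adjusted p = 1.02e-05). Whether its probe set also binds RNA of Krt17 or other close relatives was not tested, and the same holds for Krt6a with Krt6b. Krt87 and Krt78 were called with small differences of 0.47 and 0.39, and Krt78 was not called without luminal array 3. The count of 4 called was 6 without luminal array 3 and 6 without control basal array 4.

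In SSKO against control basal cells none of the 34 was called by limma, and the smallest p belonged to Krt82 with a difference of 0.34 and Krt36 with 0.30 (limma adjusted p = 0.9998 for each). In SSKO basal against luminal cells 3 were higher (Krt42 by 2.60, Krt32 and Krt82 by 0.46) and Krt4 was lower, with a difference of -3.95. Of all genes, 19% were called higher and 23.3% lower in that comparison. Krt6b itself was not called in any comparison, and its SD was 3.25 in luminal (n = 3) and 3.42 in control basal cells (n = 4). With luminal array 3 and control basal array 4 left out, a choice made after seeing the data, 6 of the other keratins were called in luminal against control basal cells, among them Krt6a with 2.23 and Krt16 with -1.42. The 9 keratins kept their calls in that setting, with Krt5, Krt14 and Krt17 at -4.84, -4.93 and -4.68 in luminal cells. Krt19 in SSKO against control basal cells was then 1.60 (limma adjusted p = 0.0912) and Krt7 1.29 (limma adjusted p = 0.126). Both differences are those without control basal array 4 alone, since luminal array 3 does not enter them.

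**Figure D4:**
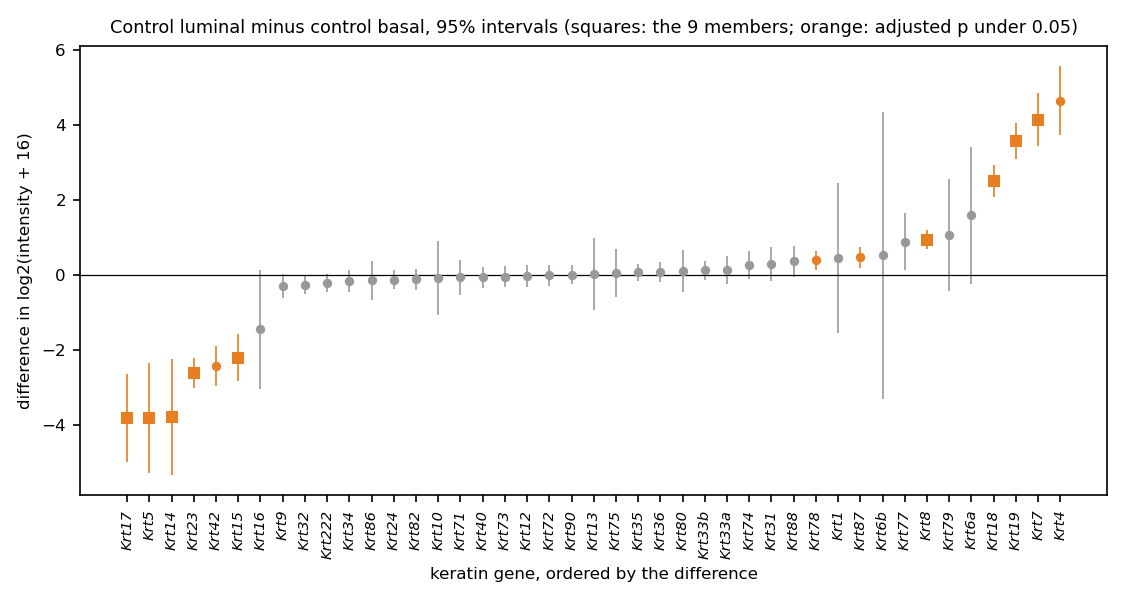
Luminal minus control basal difference, in log2(intensity + 16), of all 43 keratin genes tested, ordered by size; squares are the 9 keratins described here, circles the 34 others, bars the 95% intervals, and orange marks an adjusted p under 0.05. Most others lie near 0, Krt4 (4.65) and Krt42 (-2.43) lie far from it, and Krt6b has the widest interval.

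Keratin filaments are anchored to cell junctions by plakins and plakophilins. The list of linkers, with 16 genes measured, holds these and other proteins of keratin filaments and their junctions, such as Col17a1 and Itga6. In luminal against control basal cells 3 were called higher and 6 lower, where 24.6% and 19.7% of all genes were, so the share called higher is near that of all genes. Pkp2, a desmosomal plakophilin of simple epithelia, was 10.52 ± 0.20 in luminal (SD, n = 3) and 7.03 ± 0.30 in control basal cells (SD, n = 4), a difference of 3.49. Pkp1, the plakophilin of stratified epithelia, went the other way with -2.13. Col17a1 and Itga6, which belong to the hemidesmosome that ties basal keratin to the basement membrane, differed by -4.55 and -0.66. In SSKO against control basal cells none of the 16 was called, and the smallest p belonged to Pkp2 with a difference of 0.66 and Tchp, encoding trichoplein, with 0.18 (limma adjusted p = 0.9998 for each).

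Of 14 other intermediate filament genes measured, 5 were called lower in luminal cells and 0 higher, beside 19.7% and 24.6% of all genes. Nes (nestin) differed by -3.33, Synm (synemin) by -2.91, Vim (vimentin) by -2.87 and Lmnb1 (lamin B1) by -1.82, the last a nuclear filament protein linked with proliferation. None was called in SSKO against control basal cells, where the smallest p belonged to Des (desmin) with 0.82 and Bfsp2 with 0.21 (limma adjusted p = 0.9998 for each). All 11 measured fibroblast genes were also called lower in luminal cells. Of 9 pericyte genes 6 were called lower and 1 higher. The part of fibroblasts and pericytes in the values of Vim, Nes and Des was not tested.

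Of 16 transcription factors known to bind or regulate keratin genes in epithelia, 8 were called higher and 4 lower in luminal cells, beside 24.6% and 19.7% of all genes. Foxa1, a pioneer factor of luminal cells, was 5.35 higher, Elf5 (a factor of alveolar and progenitor cells) 2.75, and Grhl1 (a grainyhead factor) 2.30, while Tfap2c, an AP-2 factor, differed by -2.52. In SSKO basal against control basal cells none was called. Foxa1 had the smallest p there, at 10.26 ± 0.38 in SSKO basal (SD, n = 3) and 9.14 ± 0.23 in control basal cells (SD, n = 4), a difference of 1.11 (limma adjusted p = 0.105). Its groups did not overlap, as was the case for Krt19. Elf5 followed with a difference of -0.46 (limma adjusted p = 0.9998).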

How the data were processed

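RNA from 10 sorted mouse mammary samples was measured on Affymetrix arrays. The authors deposited 1 linear intensity per probe set and array. Per the submitters' processing notes, Affymetrix Expression Console 1.1 and PLIER 2.0 were used, while their order, the normalization between arrays and the genome build are not given in the sources used here. Names came from the platform annotation, where 21780 probe sets had 1 symbol, 1605 several and 5430 none, and only the first were named. Deposited intensities were taken as log2(intensity + 16), with the 25% of probe sets of lowest mean dropped (a mean under 6.74) and the brightest probe set kept per gene, leaving 15815 genes.

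limma 3.58.1 in R 4.3.3 fitted the 3 group means over the 10 arrays, with 7 residual degrees of freedom. Tests were two-sided, adjusted by Benjamini-Hochberg over all genes, and called at 0.05. The steps were tested on simulated data with known changes. No batch label was available. Motifs were searched in RefSeq promoters. Plots used matplotlib 3.10.9 (Python 3.11.15).

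The keratins, the gene lists and the rules were chosen with earlier results of these data known. The rule named the 9 keratins, up to 8 other keratins called in luminal against control basal cells and the 2 of smallest p in SSKO against control basal cells. From the lists of linkers, other filaments and transcription factors it took up to 4 called genes and 2 of smallest p, and for each keratin the 2 genes with the most similar variation. The 2 brightest genes were named for lists of other cell types. Genes outside it (Krt6a, Krt6b, Krt1, Krt10, Krt16, Krt32, Krt77, Krtdap, Lor, Calml3, Trp63, Myh11, Mylk, Actg2, Cd24a, Itgb1, Itgb3, Ptprc, Pecam1, Cited1, Esr1 and Muc1) were chosen after their values were seen. There were 24 alternatives per result, 10 of which left out 1 array.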

Additional observations from a re-analysis of the deposited data

Results flagged for a closer look

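Dixon's test for 1 value far from the rest was applied to the 4 control basal arrays for each of the 9 keratins, since groups of 3 were not tested, and chance alone marks about 1 in 20 groups. Krt5 in control basal array 4 stood at 13.55, apart from the other control basal arrays, with a gap of 0.929 of the group's range, above the 95% critical value for 4 samples. Krt23 in control basal array 2 stood at 8.62, below the others, with a gap of 0.857 of the range, also above it.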

How the results depend on the processing

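In luminal against control basal cells all 9 keratins were called under every alternative. In SSKO basal against luminal cells they were called under every alternative that kept more than SSKO basal array 2 in its group. That array was alone when the 3 endothelial-bright basal arrays were left out, and the Krt14 difference from luminal cells was then 3.86. In SSKO against control basal cells 0 keratins were called with all arrays, 1 with the replicate block (Krt19, 1.60, limma adjusted p = 0.0233), and 0 to 1 when single arrays were left out. Summed over all comparisons, the count of calls among the other keratins was 8, where a gene called in several comparisons counts in each. It was 13 with array weights, 5 without the 3 endothelial-bright arrays, 13 without the 2 Krt6b-bright arrays (chosen after seeing the data), and 7 to 11 when single arrays were left out. In SSKO against control basal cells the Krt14 difference of -0.01 turned to 0.0447 with the replicate block and without the 2 Krt6b-bright arrays. It was 0.0352 with the endothelial mean as a covariate and 0.0325 without the 3 endothelial-bright arrays. It ran between -0.0415 and 0.0447 when single arrays were left out. Control basal array 4 alone carries replicate number 4, so the block fits it exactly. For every gene the difference with the block, or without the 2 Krt6b-bright arrays, therefore equals that without control basal array 4. These 3 settings are not separate evidence on the size of the Krt14 or Krt19 difference. The Krt17 difference of 0.06 became -6e-04 with quantile normalization. The cause was not tested. The replicate numbers were not taken to pair the samples, since not every pair correlated (correlations of same-numbered SSKO and control basal deviations 0.635, 0.464 and 0.0473, with 2 of 3 SSKO arrays best matched by their own number). Calls over all genes are given apart from the setting that leaves SSKO basal array 2 alone. They ranged between 1 and 27 in SSKO against control basal cells (6 with the settings reported), 5944 to 7538 in luminal against control basal, and 5617 to 7886 in SSKO basal against luminal cells. With 3 or 4 arrays a group and no detection calls, dim values such as luminal Krt23 are bounds at best.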
